A study of Mus musculus with 27 samples.

Results

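The genes described here are 10 long noncoding genes that host small nucleolar RNAs (snoRNAs): Gas5, Snhg1, Snhg3, Snhg4, Snhg5, Snhg6, Snhg8, Snhg12, Snhg15 and Snhg17. They were taken by gene symbol, and all 10 were found among the 54532 genes counted in both RNA-seq experiments of the study. B cells were purified by negative selection from spleens of wild-type mice, with C57BL6 as the labelled strain and no age in the labels, and were cultured for 3 h. In experiment 1, with 4 samples per group, the cells were left unstimulated (NS), stimulated with LPS or stimulated with IL-4 plus an antibody to CD40 (IL-4+anti-CD40), and each stimulus was also combined with 1 μM disulfiram (DSF). In experiment 2, with 1 sample per condition, the same 5 conditions were repeated and each stimulus was also combined with 1 μM ibrutinib, an inhibitor of the kinase Btk. The study describes the cells as pre-treated with the inhibitor, and the labels give no order of addition. LPS stood for a T cell-independent stimulus and IL-4+anti-CD40 for a T cell-dependent one. In both experiments the sample titles name a vehicle for the stimulated samples without inhibitor and none for NS. The samples without inhibitor, NS included, carry the name of the solvent DMSO in experiment 2. No group received an inhibitor without a stimulus. The study calls the 4 samples per group behind its expression graphs biologically independent. Nothing in the labels ties a sample to a mouse, so p-values measure the spread between these samples, which may be partly technical.

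A snoRNA host gene carries its snoRNAs within introns, and each snoRNA is released after splicing by trimming of the excised intron. Box C/D snoRNAs guide 2′-O-methylation and box H/ACA snoRNAs guide pseudouridylation, mainly of ribosomal RNA, whose production rises when a resting lymphocyte is activated. The spliced RNA left behind has little coding capacity, and for several of these genes it is known to be engaged by ribosomes and then destroyed by nonsense-mediated decay (NMD). Many host genes start transcription in a run of pyrimidines, the 5′ terminal oligopyrimidine tract also found in ribosomal protein genes. The libraries were made from poly-T selected RNA, which holds the spliced host RNAs and not the short, unadenylated snoRNAs.

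Sequences are shown first, to make visible what these genes carry. The deposited annotation places 35 snoRNA entries inside the 10 genes, all on the strand of the host, of which 10 lie in Gas5, 8 in Snhg1, 5 in Snhg12, 3 in Snhg17, 2 each in Snhg3, Snhg4 and Snhg5, and 1 each in Snhg6, Snhg8 and Snhg15. Some of these entries overlap each other, as do 2 for Snord80 in Gas5 and 2 for Snora16a in Snhg12. Of the 35, 34 had 0 counts in all 27 libraries, and the remaining entry, Snord87 in Snhg6, had between 1 and 19. A read that fits both a snoRNA entry and its host cannot be assigned from these files, and the counts below are those of the host entries. The snoRNA sequences were taken from GENCODE vM21 transcripts with the same coordinates on GRCm38 (the assembly that mm10 names). They are given on the strand of the gene, 5′ to 3′. The 2 entries in Snhg4 were not read. Of 33 read, 16 held the letters ATGATGA or GTGATGA near the start (box C) and CTGA near the end (box D), and 7 held ACA at 3 bases before the end, as box H/ACA snoRNAs do. A sequence without these exact letters may still belong to either class. The examples give 1 snoRNA for each of 5 host genes and a pair from Snhg5, with the boxes in capitals.
Snord47, in Gas5, chr1:161038082-161038158, plus strand: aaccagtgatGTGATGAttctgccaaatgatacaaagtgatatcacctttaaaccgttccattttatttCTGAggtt
Snord50a, in Snhg5, chr9:88521529-88521600, minus strand: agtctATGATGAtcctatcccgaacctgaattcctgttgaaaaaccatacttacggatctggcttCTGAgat
Snord50b, in Snhg5, chr9:88521797-88521868, minus strand: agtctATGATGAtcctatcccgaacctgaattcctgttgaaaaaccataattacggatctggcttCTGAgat
Snord87, in Snhg6, chr1:9942463-9942549, minus strand: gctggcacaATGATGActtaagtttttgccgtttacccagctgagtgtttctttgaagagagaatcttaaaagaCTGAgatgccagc
Snord99, in Snhg12, chr4:132310691-132310764, plus strand: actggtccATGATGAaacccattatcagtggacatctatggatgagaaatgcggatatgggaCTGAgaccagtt
Snora24, in Snhg8, chr3:123507937-123508066, minus strand: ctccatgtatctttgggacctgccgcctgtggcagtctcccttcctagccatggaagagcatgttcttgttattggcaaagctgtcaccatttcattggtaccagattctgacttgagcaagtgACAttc
Snora9, in Snhg15, chr11:6528033-6528165, minus strand: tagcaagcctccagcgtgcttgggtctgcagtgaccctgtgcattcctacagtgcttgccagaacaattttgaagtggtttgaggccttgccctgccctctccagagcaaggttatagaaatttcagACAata
Snord50a and Snord50b share 71 of 72 bases and differ by C50A, with positions counted from 1 at the 5′ end of Snord50a.

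The starts of the host genes were taken from RefSeq (GRCm38.p6), which matched 8 of the 10 genes with 10 start sites. Snhg4 and Snhg6 were not matched. The first 30 bases transcribed are shown, because the pyrimidine tract lies there, with the first run of at least 4 consecutive C or T that begins within the first 5 bases in capitals.
Gas5, start at chr1:161035166, plus strand: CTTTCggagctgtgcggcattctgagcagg
Snhg1, start at chr19:8723487, plus strand: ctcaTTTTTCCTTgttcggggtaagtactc
Snhg3, start at chr4:132353686, minus strand: gaCTTCCgggcgttacttaaggtataaata
Snhg5, start at chr9:88522897, minus strand: gggctcgttcttttacgacggagcctaaga
Snhg8, start at chr3:123508336, minus strand: CTCTTTggctgcgatccgcctacgagtatg
Snhg12, start at chr4:132308678, plus strand: TTTCTCgcttcatccgcggtccctgtctgt
Snhg15, start at chr11:6528760, minus strand: aaCTTTaagcacacgtgagcgtcctcagct
Snhg17, start at chr2:158361509, minus strand: TTTCCTgtcgcgtggatgtgtttcctctct
A second start of Gas5 and a second start of Snhg17 held no such run, nor did the start of Snhg5, so that 7 of the 10 windows held one. Among all 32851 RefSeq start windows of mouse genes the share was 24.2%. A run of at least 6 was found in 4 of the 10 windows (those shown for Snhg1, Snhg8, Snhg12 and Snhg17) and in 8.64% of all windows. The letters CACGTG, the E-box of Myc and related factors, which read the same on both strands, were searched in the 300 bases from 250 before to 50 after the start. They were present for Snhg15 only, beginning at base 12 of the transcript shown, and in 7.15% of all windows. These matches describe letters and not binding.

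Experiment 1 gave between 17804851 and 23632992 counts per library and experiment 2 between 16049295 and 24619776. Levels between libraries are given as CPM, counts relative to a library size scaled by the trimmed mean of M values (TMM), and levels between genes as the deposited FPKM, which divide by gene length. B cell markers (Ms4a1, Cd79a, Cd79b, Cd22 and Pax5) summed to between 1970 and 6950 CPM in experiment 1, whereas the T cell markers Cd4 and Cd8a and the neutrophil marker Ly6g averaged under 1 CPM in every group of experiment 1. The other 4 T cell markers and 4 neutrophil markers were above 1 CPM on average in NS. Myeloid markers summed to between 542 and 659 CPM in NS and to between 149 and 291 in the 4 stimulated groups, and T cell, neutrophil, NK cell and erythroid markers reached at most 57.3 CPM in experiment 1. The 4 NS libraries fell into 2 pairs: replicates 1 and 2, and replicates 3 and 4. The SD of the log2 differences over genes was 0.183 and 0.216 within the pairs and at least 0.664 across them. The highest NS library was at least 2-fold above the lowest for 13.9% of 12811 genes, against 1.09% with LPS and at most 5.17% in the other groups. The largest differences from NS are therefore given also with either NS pair alone. The IL-4+anti-CD40 libraries formed the same pairs less sharply (0.224 and 0.25 within, 0.323 to 0.418 across).

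Snhg3 was barely measured, and 9 genes were left for tests. It had between 0 and 11 counts in the libraries of either experiment, did not pass edgeR's filter on low counts, and had adjusted p-values between 0.205 and 1 when genes with any count were kept. Its counted length was 986 bases, 17.4% of its span at chr4:132348014-132353686. The protein-coding gene Rcc1, the exchange factor of the GTPase Ran, overlaps 5592 bases of it on the same strand and had between 709 and 3137 counts, and reads that fit both genes cannot be assigned to either from these files. The other 9 genes had at least 142 counts in each library of experiment 1 and at least 179 in each of experiment 2.

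Per length, Gas5 was the highest of the 9 genes in NS, Snhg15 in the 4 stimulated groups, and Snhg4 the lowest in all 5 groups of experiment 1. In NS, the mean FPKM was 39.2 ± 1.65 (SD, n = 4) for Gas5, which hosts box C/D snoRNAs and was named for its high level in growth-arrested cells. Snhg8 followed at 27.3 FPKM, Snhg15 at 19.97, Snhg1 at 17.2, Snhg5 at 16.6, Snhg6 at 16.4, Snhg12 at 11.9, Snhg17 at 6.83 and Snhg4 at 1.85. Gas5 lay above Snhg8 in all 4 libraries, but neighbours in the order from Snhg8 down to Snhg6 overlapped in their ranges, and Snhg15 alone spread from 11.9 to 28.9 FPKM. With either stimulus Snhg15, the host of Snora9, moved to the top at 96.8 FPKM under LPS and 104.8 under IL-4+anti-CD40, with no overlap with Gas5 at 43.1 and 52.2. Snhg8, the host of Snora24, stood at position 5 under LPS and 6 under IL-4+anti-CD40 (23.8 and 22.5 FPKM) and at position 4 in both groups with DSF (33.9 and 36.2 FPKM), where its range did not overlap those of the genes next to it. Snhg4 averaged between 1.85 and 8.01 FPKM over the groups of experiment 1. In experiment 2 the 2 libraries with DSF had Snhg8 at position 2 (41.8 and 55.8 FPKM), above Gas5 (38.2 and 42.6 FPKM), and Snhg4 was again the lowest in each library, at 1.76 FPKM in NS.

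**Figure D1:**
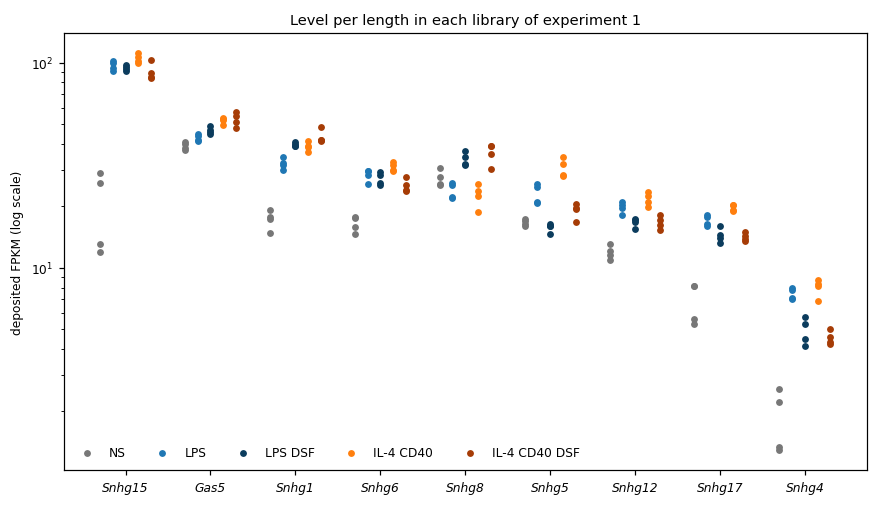
Deposited FPKM (vertical log axis) of the 9 measured host genes in each of the 20 libraries of experiment 1, 1 point per library and 1 colour per group. Snhg15 lies between 11.9 and 28.9 FPKM in NS and above every other gene in the stimulated groups, and Snhg4 is the lowest gene in each group on average.

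The first question was how the host genes changed within 3 h of stimulation. LPS raised 7 of the 9 genes and lowered none (edgeR's quasi-likelihood test, 4 against 4 libraries, adjusted p under 0.05), where 29.6% of the 14477 genes tested were higher and 33.3% lower. On the log2 scale, the median of the 9 genes was 0.80 and that of all genes tested -0.05. Snhg15 had 39.4, 35.5, 16.4 and 18.2 CPM in NS replicates 1 to 4 and 142, 138, 131 and 126 CPM with LPS. The groups did not overlap, and NS replicates 1 and 2 were at 2.17 times the mean of replicates 3 and 4. The log2 fold change was 2.30 ± 0.276 (SE, adjusted p = 0.000122), a 4.91-fold rise, and was 1.845 with NS replicates 1 and 2 alone and 2.99 with replicates 3 and 4 alone. Snhg4, the host of Snora74a, had 10.3, 11.98, 6.1 and 6.4 CPM in NS and 37.9, 37.0, 33.7 and 33.75 with LPS. Its groups did not overlap either, the first NS pair again being the higher one. It rose by 2.03 ± 0.213 on the log2 scale (adjusted p = 5.51e-05), or by 1.68 and 2.54 against either NS pair. Snhg17 had 57.8, 57.7, 38.1 and 40.9 CPM in NS and 127, 130.3, 118 and 114.5 with LPS, without overlap. The log2 fold change was 1.33 ± 0.144 (adjusted p = 6.45e-05), and 1.09 and 1.66 against either pair.

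The other 4 genes that rose with LPS host box C/D snoRNAs or both classes. Snhg1, also known as the host of U22, had 56.97, 52.6, 44.3 and 53.0 CPM in NS and 105, 95.7, 97.7 and 91.1 with LPS, which did not overlap, and rose by 0.915 ± 0.0856 (log2, adjusted p = 2.94e-05). Snhg6 went from a mean of 19.0 to 33.0 CPM, with a log2 fold change of 0.80 ± 0.0888 (adjusted p = 7.8e-05). Snhg12, which hosts Snora16a, Snora44, Snora61 and Snord99, went from 29.0 to 48.2 CPM, with 0.74 ± 0.0775 (adjusted p = 5.6e-05). Snhg5, host of the U50 pair shown above, had 29.9, 29.5, 28.5 and 28.5 CPM in NS and 43.9, 45.3, 37.1 and 36.3 with LPS. All LPS libraries lay above the NS libraries, which were close to each other, and the log2 fold change was 0.48 ± 0.0847 (adjusted p = 0.00106).

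Gas5 and Snhg8 did not pass the test with LPS. Gas5 had 151, 145, 142 and 158 CPM in NS and 173, 169, 160.5 and 159 with LPS. These groups just did not overlap, and the log2 fold change was 0.15 ± 0.0624 (adjusted p = 0.0633). With either NS pair alone it was 0.16 (adjusted p = 0.00428) and 0.17 (adjusted p = 0.00964). Both fits leave out the spread between the NS pairs, so their p-values do not measure it. Calls over all genes rose as well, from 4283 higher and 4818 lower to 5005 and 5238, and to 5618 and 5902. Scaling by total counts gave -0.08. Snhg8 had 23.6, 21.7, 22.3 and 26.7 CPM in NS and 22.6, 19.1, 22.0 and 19.2 with LPS, which overlapped, with a log2 fold change of -0.18 (95% interval -0.38 to 0.01, adjusted p = 0.134). With total counts 7 genes were higher and 1, Snhg8, lower (-0.41), where 2903 of all genes were higher and 6387 lower. In all, 8 of the 9 genes lay higher without overlap and none lower, against 29.5% and 31.4% of all genes. Myeloid markers and B cell markers were both higher in NS than with LPS (542 to 659 against 149 to 171 CPM, and 4070 to 6950 against 2800 to 2890 CPM), and their part in these differences was not tested. In such bulk samples, fewer cells of a type and less RNA per cell cannot be told apart.

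IL-4+anti-CD40 raised 8 of the 9 genes and lowered none, where 30.4% of 14433 genes were higher and 32.1% lower. The 9 genes had a median of 0.94, against -0.04 over all genes. This comparison shares its NS libraries with the previous one. Snhg15 had 148, 141, 139 and 136 CPM, all above the NS libraries, with a log2 fold change of 2.42 ± 0.276 (edgeR, adjusted p = 8.35e-05), a 5.35-fold rise, and 1.94 and 3.10 against either NS pair. Snhg4 had 37.1, 37.8, 40.5 and 32.4 CPM and a log2 fold change of 2.14 ± 0.22 (adjusted p = 4.72e-05), or 1.755 and 2.63 against either pair. Snhg17 had 140, 138.5, 135 and 134 CPM and 1.55 ± 0.143 (adjusted p = 2.67e-05), or 1.27 and 1.86. These libraries lay close to each other for all 3 genes, and the spread came from NS. Snhg1 rose by 1.20 ± 0.0899 (adjusted p = 9.55e-06), Snhg6 by 0.94 ± 0.0934 (adjusted p = 3.95e-05) and Snhg12 by 0.88 ± 0.0905 (adjusted p = 4.66e-05). Snhg5 had 54.5, 58.4, 48.6 and 49.4 CPM and rose by 0.91 ± 0.0865 (adjusted p = 3.06e-05), with the first pair of libraries above the second. Gas5 had 197, 194, 186 and 199.9 CPM, all above NS, and rose by 0.43 ± 0.0685 (adjusted p = 0.000543). Snhg8 had 19.7, 18.5, 15.9 and 22.0 CPM, overlapping NS, with a log2 fold change of -0.255 ± 0.121 (adjusted p = 0.0942), so that it was the only one of the 9 below NS on average under either stimulus. Without overlap, 8 of the 9 lay higher and none lower (27.8% and 32.3% of all genes). The count of 8 higher genes was the same with either NS pair, and with total counts Snhg8 was called lower besides (-0.40, adjusted p = 0.0146). Under that scaling 3454 of all genes were higher and 5574 lower.

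**Figure D2:**
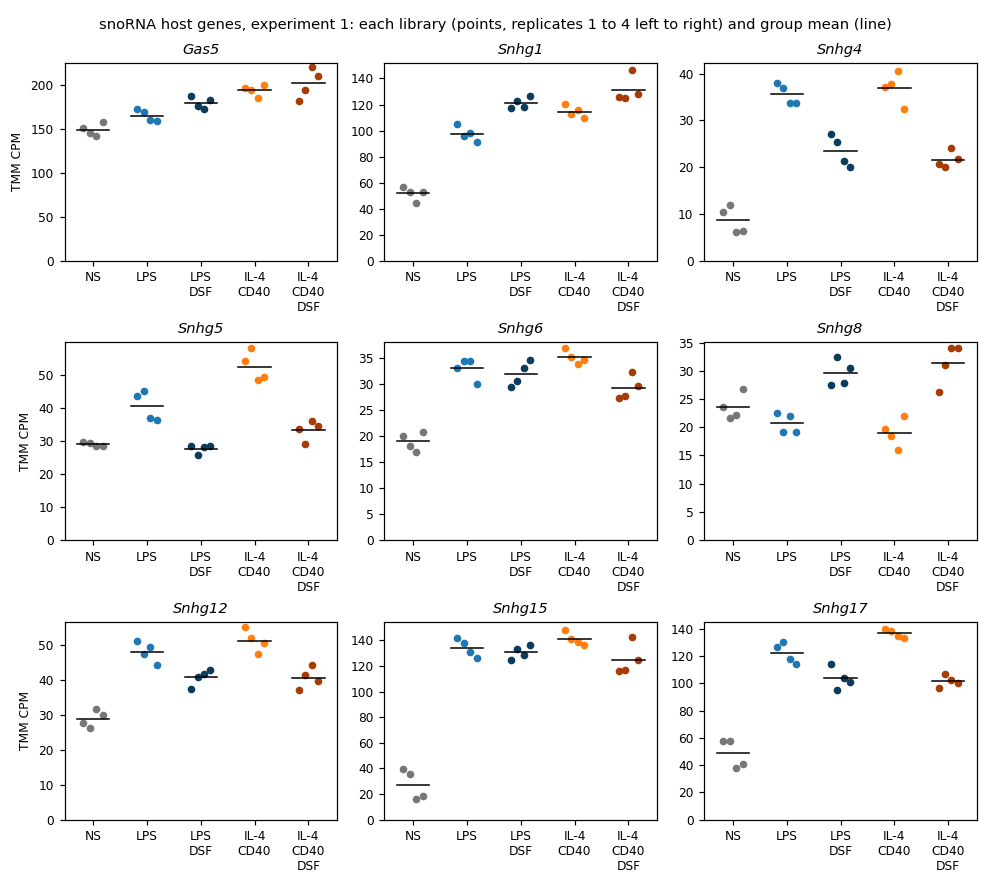
TMM CPM (vertical axes from 0) of each of the 9 measured host genes in the 20 libraries of experiment 1, 1 point per library with the group mean as a line. Snhg15, Snhg4 and Snhg17 show NS replicates 1 and 2 above replicates 3 and 4 and all stimulated libraries above both, and Snhg8 lies higher in the 8 libraries with DSF (26.3 to 34.1 CPM) than in the 8 with a stimulus alone (15.9 to 22.6 CPM).

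Between the stimuli, 4 of the 9 genes were lower with LPS than with IL-4+anti-CD40 and none higher, where 17.3% of 14078 genes were lower and 22.3% higher. They were Snhg5 (log2 fold change -0.37 ± 0.0895, edgeR adjusted p = 0.00632), Snhg1 (-0.23 ± 0.0559, adjusted p = 0.00641), Gas5 (-0.23 ± 0.0475, adjusted p = 0.00252) and Snhg17 (-0.155 ± 0.0529, adjusted p = 0.0362). The groups did not overlap for any of the 4, and 17.7% of all genes lay lower without overlap and 21.9% higher. Snhg17 lost the call when LPS replicate 3 or 4 or IL-4+anti-CD40 replicate 1, 2 or 3 was left out, at adjusted p-values from 0.0507 to 0.116, and with all 20 libraries in one fit (adjusted p = 0.272). The genes with the largest rises did not pass: Snhg15 differed by -0.07 (adjusted p = 0.354) and Snhg4 by -0.05 (adjusted p = 0.643). With total counts as the scaling, which moved the median of all genes by -0.14, 7 of the 9 were lower. Of all genes, 4712 were then lower and 2428 higher.

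The second question was what DSF did on top of each stimulus. With LPS, DSF changed 7 of the 9 genes, 3 upwards and 4 downwards, where 35.1% of 14154 genes were higher and 36% lower. The median was -0.03, against 0.00 over all genes, and the counts in both directions were near the shares of all genes. With total counts 2 were higher and 6 lower, where 3473 of all genes were higher and 6680 lower. Snhg8 had 27.4, 32.5, 27.8 and 30.4 CPM with DSF against 22.6, 19.1, 22.0 and 19.2 with LPS alone. All libraries with DSF were higher, and the log2 fold change of 0.53 ± 0.0754 (edgeR, adjusted p = 8.87e-07) was the largest rise among the 9. Snhg1 had 118, 122, 118 and 126 CPM, above all libraries with LPS alone, and rose by 0.33 ± 0.0449 (adjusted p = 3.89e-07). Gas5 had 187, 177, 172 and 183 CPM, which overlapped LPS replicate 1, and rose by 0.14 ± 0.0425 (adjusted p = 0.00577), a call lost without LPS replicate 3 (adjusted p = 0.0674) or 4 (adjusted p = 0.0782) and turned to -0.07 by total counts.

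The falls with DSF were in Snhg4, Snhg5, Snhg12 and Snhg17. Snhg4 had 27, 25.4, 21.3 and 20.1 CPM, all under the 33.7 to 37.9 of LPS alone, and fell by 0.585 ± 0.0818 on the log2 scale (adjusted p = 6.49e-07). Snhg5 had 28.5, 25.8, 28.2 and 28.5 CPM against 43.9, 45.3, 37.1 and 36.3 with LPS alone. No library overlapped, and the fall of 0.54 ± 0.0734 (adjusted p = 4.43e-07) took Snhg5 to just under the range of NS (28.5 to 29.9 CPM). Snhg17 fell by 0.225 ± 0.0546 (adjusted p = 0.000729), from a mean of 122.3 to 103.5 CPM, a call that was lost with all 20 libraries in one fit (-0.24, adjusted p = 0.0565). Snhg12 fell by 0.22 ± 0.0578 (adjusted p = 0.00134). Snhg6 and Snhg15 did not pass the test, with differences of -0.03 (95% interval -0.16 to 0.10, adjusted p = 0.66) and -0.02 (-0.11 to 0.06, adjusted p = 0.63). Without overlap, 2 genes lay higher and 4 lower, against 30.3% and 33.8% of all genes.

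With IL-4+anti-CD40, DSF lowered 6 of the 9 genes and raised 1, where 31.6% of 14275 genes were lower and 30.1% higher. The median was -0.32, against -0.015 over all genes. Snhg4 had 20.6, 20.1, 24.0 and 21.8 CPM with DSF against 37.1, 37.8, 40.5 and 32.4 without. All 4 were lower, and the fall of 0.83 ± 0.0861 (edgeR, log2, adjusted p = 9.63e-06) was the largest. Snhg5 had 33.8, 29.2, 36.3 and 34.7 CPM against 54.5, 58.4, 48.6 and 49.4, again without overlap, and fell by 0.71 ± 0.0851 (adjusted p = 2.58e-05). Snhg17 fell by 0.49 ± 0.0497 (adjusted p = 8.36e-06), Snhg12 by 0.39 ± 0.0738 (adjusted p = 0.000687) and Snhg6 by 0.32 ± 0.0718 (adjusted p = 0.00215). Snhg15 had 116, 117, 142 and 124 CPM, of which replicate 3 overlapped the group without DSF, and fell by 0.24 ± 0.0682 (adjusted p = 0.0105), which became 0.18 (adjusted p = 0.0583) when compared with IL-4+anti-CD40 replicates 3 and 4 alone, and 0.175 (adjusted p = 0.441) with all 20 libraries in one fit.

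Snhg8 was again the gene that rose with DSF in the IL-4+anti-CD40 culture. It had 26.3, 31.1, 34.0 and 34.1 CPM against 19.7, 18.5, 15.9 and 22.0 without DSF, with no overlap, and a log2 fold change of 0.66 ± 0.112 (adjusted p = 0.000341). Snhg1 had 126, 125, 147 and 128 CPM against 120.3, 113, 115 and 109.6. These groups did not overlap, but the log2 fold change of 0.14 ± 0.0626 did not pass the test (adjusted p = 0.0791). With IL-4+anti-CD40 replicates 3 and 4 alone it was 0.18 (adjusted p = 0.0423), in a fit without the spread between the pairs. With total counts it was -0.01. Gas5 had 182.5, 195, 221 and 211 CPM against 197, 194, 186 and 199.9, which overlapped, and a log2 fold change of 0.00 (95% interval -0.12 to 0.12, adjusted p = 0.984), but was called lower with total counts (-0.15, adjusted p = 0.0354). The CPM are scaled over all 20 libraries and the fold changes over the 8 compared, so a fold change need not match the ratio of the CPM exactly. Without overlap, 2 genes lay higher and 5 lower, against 30.6% and 26.5% of all genes. B cell markers summed to between 1970 and 2540 CPM in the 2 groups with DSF and to between 2800 and 3150 without, and myeloid markers to between 232 and 291 CPM with IL-4+anti-CD40 and DSF against 172 to 195 without, and their part in these differences was not tested.

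**Figure D3:**
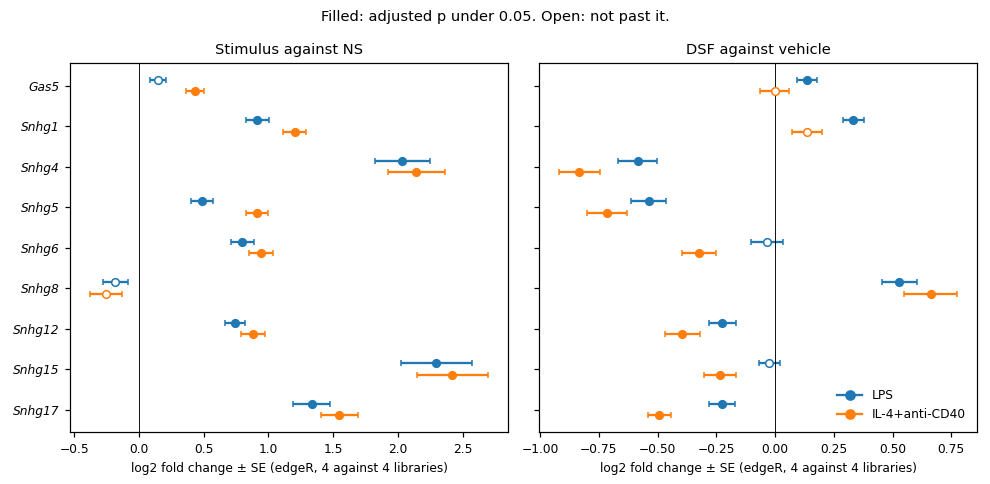
Log2 fold change ± SE (horizontal axes) from edgeR for the 9 host genes, with the stimuli against NS on the left and DSF against vehicle on the right. Filled points passed an adjusted p of 0.05: all but Gas5 (LPS) and Snhg8 (both stimuli) on the left, and on the right the 7 genes changed under LPS (3 higher, 4 lower) and the 7 changed under IL-4+anti-CD40 (1 higher, 6 lower). With total counts Gas5 turned negative in both LPS comparisons and Snhg1 in DSF under IL-4+anti-CD40.

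Whether the DSF effect differed between the stimuli was tested as an interaction over 16 libraries. Only Snhg17 passed, with a log2 difference of 0.26 ± 0.0837 (LPS minus IL-4+anti-CD40, edgeR adjusted p = 0.04), where 7.92% of 15130 genes passed in that direction and 6.96% in the other. DSF lowered it under both stimuli, and the call was lost in 10 of the 16 fits that left out 1 library. Snhg6 had a difference of 0.285 (adjusted p = 0.0544), Snhg15 of 0.21 (adjusted p = 0.107) and Snhg1 of 0.19 (adjusted p = 0.118). For Snhg8 the difference was -0.14 (adjusted p = 0.553).

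Against NS, the stimulated cells with DSF still showed higher host RNAs. With LPS and DSF 8 of the 9 genes were higher and none lower (34.3% and 37.3% of 14663 genes). Total counts gave 5 and 1, where 3151 of all genes were higher and 7453 lower. After IL-4+anti-CD40 plus DSF all 9 were higher (33.4% higher and 35.3% lower among 14678 genes). The count was 5 with total counts, where 3117 of all genes were higher and 6760 lower, and 8 with a replicate block. Snhg15 stood at log2 fold changes of 2.24 ± 0.277 and 2.19 ± 0.282 over NS (edgeR, adjusted p = 8.47e-05 and 0.000135), Snhg4 at 1.42 and 1.31, and Snhg17 at 1.08 and 1.06. Against NS replicates 1 and 2 alone, Snhg15 was at 1.75 and 1.70, Snhg4 at 1.02 and 0.92 and Snhg17 at 0.79 and 0.78. Against replicates 3 and 4 alone, the values were 2.91 and 2.86, 1.90 and 1.80, and 1.38 and 1.37, and all 12 passed the test. Snhg5 was at -0.08 over NS with LPS and DSF (adjusted p = 0.314), its 4 libraries lying just under the 4 of NS, and at 0.21 with IL-4+anti-CD40 and DSF (adjusted p = 0.0407), a call that was lost when any 1 NS library was left out and turned to -0.10 with total counts. Snhg8 was above NS in both groups, at 0.32 (adjusted p = 0.0135) and 0.42 (adjusted p = 0.00711), neither of them called with total counts (-0.09, and 0.11 with an adjusted p of 0.37).

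Experiment 2 repeated the conditions with 1 library each, so no test was made and a 2-fold difference was used to describe size, with 95% intervals that cover counting error only. LPS raised 3 of the 9 genes 2-fold or more (8.62% of 14275 genes). With IL-4+anti-CD40 there were 5 (10.7%), and none fell 2-fold under either stimulus (9.88% and 13.7%). Snhg15 had 32.9 CPM in NS, 131 under LPS and 151 under IL-4+anti-CD40, log2 ratios of 1.99 and 2.19. Snhg4 had 8.33, 28.6 and 37.5 CPM, with log2 ratios of 1.77 (1.53 to 2.03) and 2.155 (1.93 to 2.41). Gas5 had 134 CPM in NS, 176 under LPS and 211 under IL-4+anti-CD40, with log2 ratios of 0.39 and 0.66. Snhg8 was again near NS, at 19.3 and 18.9 against 20.1 CPM.

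In experiment 2 the responses to DSF were larger than in experiment 1 for most of these genes, as values set side by side and not tested. In experiment 1, 1619 of 14154 genes were called and 2-fold higher with LPS and 969 lower. With IL-4+anti-CD40 they were 1369 and 705 of 14275. The all-gene shares of experiment 2 below need no call, so the rules are unlike. Whether the larger responses were particular to the hosts was not tested. Myeloid markers summed to between 25.1 and 77.2 CPM in experiment 2, and their part was not tested. With LPS, 4 genes were 2-fold lower with DSF and none higher, where 19.5% of all genes were 2-fold lower and 20.3% higher. With IL-4+anti-CD40, 3 were 2-fold lower and 1 higher (20.3% and 21.9%). Snhg4 went from 28.6 to 11.1 CPM under LPS and from 37.5 to 12.9 CPM under IL-4+anti-CD40, log2 ratios of -1.36 (-1.62 to -1.13) and -1.53. Snhg5 went from 47.7 to 19.4 and from 56.8 to 20.2 CPM, which was below the NS library at 33.9 CPM in both cases. Snhg17 went from 106 to 49.6 and from 124 to 56.8 CPM, close to its NS library at 46.5 CPM. Snhg8 was the single gene well above 0 in both cultures, from 19.3 to 36.4 CPM under LPS (log2 ratio 0.91, 0.72 to 1.11) and from 18.9 to 48.3 CPM under IL-4+anti-CD40 (1.35). Snhg15 fell by 0.54 and 0.77, where experiment 1 had -0.02 and -0.24. Snhg1 was at 0.02 and -0.115, and Gas5 at -0.26 and -0.38, both of them higher with DSF and LPS in experiment 1.

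Ibrutinib, given at the same dose and time, left all 9 genes within 2-fold of the stimulus alone (5.28% of all genes were past 2-fold under LPS and 3.92% under IL-4+anti-CD40). The largest ratios were those of Snhg4 (-0.55, with a counting interval of -0.73 to -0.37, under LPS, and -0.52 under IL-4+anti-CD40) and Snhg15 (-0.43 and -0.49). With ibrutinib Snhg8 was at 20.9 CPM under LPS and at 17.1 CPM under IL-4+anti-CD40, log2 ratios of 0.12 and -0.15 whose counting intervals both include 0. Of the 9 genes, 8 under LPS and all 9 under IL-4+anti-CD40 had ratios below 0. Their medians were -0.225 and -0.182, where the median of all genes was 0.009 and 0.004. With 1 library per condition this difference was not tested. Between the inhibitors, Snhg5 was 2-fold lower with DSF than with ibrutinib under LPS (log2 ratio -1.10), where 19.3% of all genes were 2-fold lower and 19.5% higher. With total counts 4 genes were 2-fold lower there: Snhg5 (-1.40), Snhg12 (-1.20), Snhg17 (-1.15) and Snhg4 (-1.11). The shares just given are for TMM and not for total counts. Total counts shift all genes downwards here, as the TMM factors were 0.8402 with DSF and 1.032 with ibrutinib. Under IL-4+anti-CD40 Snhg5 (-1.29) and Snhg4 (-1.01) were 2-fold lower and Snhg8 (1.497) 2-fold higher, where 19.9% of all genes were 2-fold lower and 20.6% higher.

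**Figure D4:**
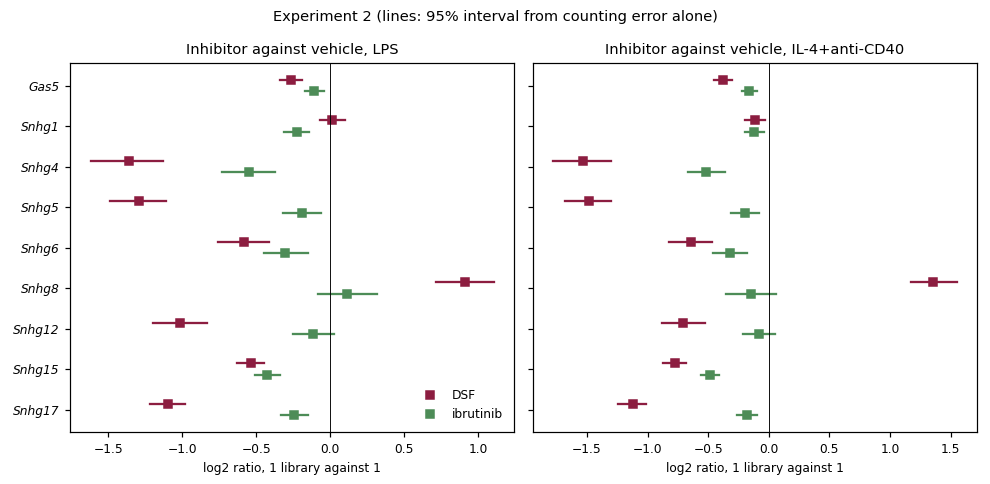
Log2 ratio of TMM CPM (horizontal axes) of each inhibitor against the stimulus alone in experiment 2, 1 library against 1, for LPS on the left and IL-4+anti-CD40 on the right. Lines are 95% intervals from counting error alone. DSF points reach -1.36 (Snhg4) and 0.91 (Snhg8) on the left and -1.53 and 1.35 on the right, whereas ibrutinib points stay between -0.55 and 0.12.

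The genes that make and use snoRNAs were read beside the hosts. Of 18 snoRNA-binding proteins and assembly factors, LPS raised 16 and lowered none (median log2 fold change 1.305, all genes 29.6% higher) and IL-4+anti-CD40 did so for 16 (1.42, all genes 30.4%), with the box C/D core protein Nop58 at 2.00 ± 0.18 and 2.035 ± 0.185 (edgeR, adjusted p = 2.32e-05 and 2.47e-05) and the chaperone Nolc1 at 1.92 and 1.97. DSF lowered 12 of the 18 in the LPS culture and 16 in the other, and raised none (medians -0.32 and -0.52, all genes 0.00 and -0.015), where 36% and 31.6% of all genes were lower. The largest falls were those of Rpap3 (-1.12 ± 0.0882, adjusted p = 2.8e-11, with LPS), Ruvbl1 (-0.92 and -0.89) and Shq1 (-0.71 and -0.90), which assemble snoRNA-protein complexes, and Dkc1, the pseudouridine synthase of H/ACA complexes, fell by 0.56 and 0.84. In experiment 2 all 18 lay below the stimulus alone with DSF, by 2-fold or more for 12 under LPS and 13 under IL-4+anti-CD40 (19.5% and 20.3% of all genes).

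Of 21 protein-coding genes that carry snoRNAs, most of them for ribosomal proteins and translation factors, LPS raised 4 and lowered 1, and 5 rose and 4 fell under IL-4+anti-CD40. Over all genes, 29.6% and 30.4% were higher and 33.3% and 32.1% lower. The numbers for the 21 genes moved with the libraries used. With NS replicates 1 and 2 alone LPS raised 15 and lowered 1, and with replicates 3 and 4 alone, as with total counts, 4 and 10. Over all genes the first pair gave 5005 higher and 5238 lower, the second 5618 and 5902, and total counts 2903 and 6387. For IL-4+anti-CD40 the pairs gave 9 and 2, and 5 and 9, and a replicate block or leaving out IL-4+anti-CD40 replicate 3 or 4 gave 5 and none. All-gene calls for the pairs were 4352 higher and 4705 lower, and 5157 and 5545. They were 4172 and 4367 for the block, 4080 and 4274 without replicate 3, and 4211 and 4461 without replicate 4. The nucleolar protein gene Ncl rose by 1.64 ± 0.168 (adjusted p = 4.96e-05) under LPS and 1.92 under IL-4+anti-CD40, and the helicase gene Eif4a1 by 1.47 and 1.67. DSF raised 18 of the 21 in the LPS culture and 15 in the other, and lowered 1 in each (medians 0.245 and 0.275, all genes 35.1% and 30.1% higher), led by the chaperone gene Hspa8 at 2.00 ± 0.0497 (adjusted p = 2.47e-21) and 1.48, while Ncl was the gene lowered (-0.12 and -0.45). With total counts the numbers were 7 raised and 2 lowered under LPS, and 5 raised and 3 lowered under IL-4+anti-CD40. Of the 11 further noncoding hosts listed, 9 were in the files and 6 passed the filter. Each stimulus raised 2 of the 6, near the share of all genes (29.6% and 30.4%). These were Dancr, by 1.93 and 1.80, and Snhg20, by 0.53 and 0.50. For LPS the count fell to 1 without LPS replicate 1, 2 or 4, and for both stimuli with total counts. For IL-4+anti-CD40 it was also 1 without NS replicate 3 or any 1 IL-4+anti-CD40 library. A replicate block, keeping genes with any count and both limma fits gave 1 for that stimulus too. With DSF, Dancr fell by 0.40 and Zfas1 rose by 0.215 in the LPS culture, and Snhg14 fell by 0.81 in the IL-4+anti-CD40 culture. Of all genes, 35.1% were higher and 36% lower in the first culture, and 30.1% and 31.6% in the second.

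Of 9 NMD factors, which act on spliced host RNAs, LPS raised 6 and lowered 1 (median 0.28), or 2 and 2 with total counts, and 4 rose and 1 fell under IL-4+anti-CD40 (0.17). Of all genes, 29.6% and 30.4% were higher and 33.3% and 32.1% lower, and total counts gave 2903 higher and 6387 lower for LPS. The helicase Upf1 rose by 0.53 ± 0.0932 (edgeR, adjusted p = 0.00115) and 0.71, while Upf3b fell by 0.64 and 0.47. DSF raised 5 and lowered 2 in the LPS culture, and raised 4 and lowered 2 in the other (medians 0.13 and 0.05, all genes 35.1% and 30.1% higher), with the endonuclease Smg6 at 0.54 and 0.35, the kinase Smg1 at 0.47 and 0.27 and Upf3b at -0.37 and -0.26. With total counts 3 rose and 4 fell under LPS, and none rose and 4 fell under IL-4+anti-CD40. The part of these factors in the changes of the host RNAs was not tested.

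**Figure D5:**
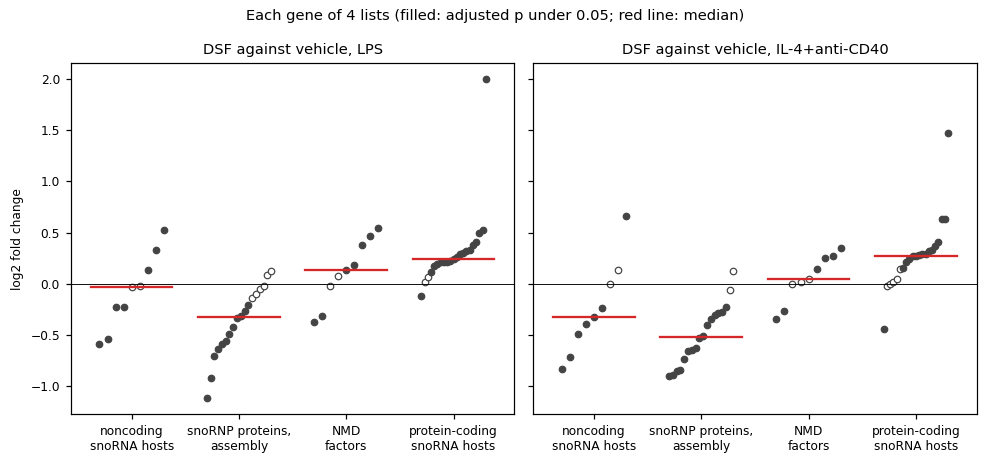
Log2 fold change of DSF against vehicle (vertical axis) for every tested gene of 4 lists, 1 point per gene, filled where the adjusted p was under 0.05, with the median as a red line. The 9 noncoding hosts have medians of -0.03 (LPS, left) and -0.32 (IL-4+anti-CD40, right), the 18 snoRNA-binding and assembly proteins -0.32 and -0.52, the 9 NMD factors 0.13 and 0.05, and the 21 protein-coding hosts 0.245 and 0.275, with fewer genes raised in the last 2 lists when total counts were the scaling. Fewer of all genes were raised under that scaling as well.

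Position matters for some of these counts, since the strand setting of the counting is not given in the sources used here. Snhg1 (chr19:8723475-8726443, plus strand) starts 106 bases from Slc3a2, the heavy chain of amino acid transporters, which lies on the other strand without overlap. Slc3a2 rose by 0.70 under LPS and 1.30 under IL-4+anti-CD40, and DSF raised it further by 2.00 ± 0.0457 (edgeR, adjusted p = 4.93e-22) and 1.41 ± 0.12 (adjusted p = 2.93e-06), where Snhg1 rose by 0.33 and had 0.14. Gas5 (chr1:161034422-161038539, plus strand) shares 428 bases with Zbtb37 on the other strand, and Zbtb37 fell by 0.39 and 0.62 with DSF where Gas5 had 0.14 and 0.00. Snhg6 shares 127 bases with Mcmdc2 on the other strand, which had between 8 and 38 counts. Snhg4 lies almost wholly within Gm28285 on the same strand (4913 bases), a gene with between 1 and 18 counts. Snhg5, Snhg8, Snhg12 and Snhg15 overlap no gene other than the snoRNAs inside them. Counted length made up between 42.9% (Snhg15) and 100% (Snhg1, Snhg8 and Snhg12) of the span of the 9 genes. A share near 100% means that intron sequence was part of the count, and GENCODE vM21 lists 20 of 25 Gas5 transcripts and 14 of 18 Snhg1 transcripts as retained introns. The 9 counts can therefore hold unspliced RNA to different degrees.

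Across the 20 libraries of experiment 1 the genes with the most similar profiles were found among 12811 genes by Pearson's r of log2 CPM, as a description, since libraries of a group share their treatment and NS lies apart from the rest. Nearest to the mean profile of the 9 hosts were Arfrp1 (0.982), Ran (0.979), Polr2h (0.979), Hnrnpa1 (0.978) and Ddx39 (0.978). Single neighbours were Gnl3 for Snhg15 (0.997), Nop56 for Snhg4 (0.993), Trmt6 for Snhg17 (0.99), Alyref for Snhg1 (0.988), Ddx39 for Snhg6 (0.968), 2610318N02Rik for Snhg5 (0.966), Riox2 for Snhg12 (0.964), Bex3 for Snhg8 (0.94) and Pdhx for Gas5 (0.916). Within the set, Snhg4 and Snhg17 were the most alike at 0.978 and Snhg5 and Snhg8 the least, at -0.67.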

How the data were processed

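Poly-T selected mRNA of cultured mouse B cells was sequenced in 20 libraries (experiment 1) and 7 libraries (experiment 2). Fastp was used by the authors for trimming, HISAT2 v2.0.5 for alignment to mm10 and, for counting, featureCounts v1.5.0-p3, and the deposited counts are not normalized. The deposited FPKM were made by the authors from these counts and gene lengths. The annotation release and the strand setting are not given in the sources used here, and a directional and a non-directional kit are both named.

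Counts were tested in R 4.3.3 with edgeR 4.0.16 (quasi-likelihood test, TMM, filterByExpr) on the 8 libraries of each comparison, or on the 16 stimulated libraries for the interaction, with Benjamini-Hochberg adjustment over all genes tested and 0.05 as the threshold. In experiment 2, log2 ratios of TMM CPM with a prior count of 2 were taken for the 14275 genes whose mean count was at least 10. Alternatives were DESeq2 1.42.0, its size factors in edgeR, total counts, other filters, all 20 libraries in one fit, a replicate block, a minimum log2 fold change of 1, limma 3.58.1 on log2(FPKM + 0.1) or log2(FPKM + 1), and leaving out each library. Fits on library pairs 1 and 2 or 3 and 4 were added after seeing the data. They leave out the spread between the pairs, which their p-values therefore do not measure. The fits were tested on simulated data with planted changes.

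The members and the gene lists were chosen with earlier results of these data known. All 10 members are named, with at most 4 called genes of each other list per comparison (largest absolute log2 fold change), genes overlapping a member or starting within 1000 bases on the other strand, and nearest profiles (mean of at least 1 CPM). No 2 replicates of a group agreed within sampling noise. Some listed genes are not reported here.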

Additional observations from a re-analysis of the deposited data

Results flagged for a closer look

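Among 45 groups of 4 libraries, 2 held a library that stood apart by Dixon's ratio at the 95% level, where chance flags about 1 in 20 groups. Snhg1 had 146.7 CPM in IL-4+anti-CD40 with DSF, replicate 3, against 124.8 to 127.7 in the other libraries of that group, with a ratio of 0.867. Snhg5 had 25.75 CPM in LPS with DSF, replicate 2, against 28.24 to 28.49, with a ratio of 0.909. The DSF effect on Snhg17 differed between the stimuli by 0.263 on the log2 scale (edgeR, adjusted p = 0.04), with all 4 libraries lower than the stimulus alone in both cultures.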

How the results depend on the processing

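Of 1494 recomputed values for single genes, 1362 kept their direction and their side of the threshold, 86 lost a call, 27 gained one and 19 changed sign. With total counts as the scaling, log2 values changed sign to -0.077 for Gas5 and LPS, -0.005 for Snhg8 between the stimuli, -0.07 for Gas5 and DSF with LPS, -0.014 for Snhg1 and DSF with IL-4+anti-CD40, -0.147 for Gas5 and -0.09 for Snhg8 with LPS and DSF against NS, and -0.104 for Snhg5 with IL-4+anti-CD40 and DSF against NS. Under this scaling the median gene was lower in the 7 comparisons of groups (-0.273 for LPS, -0.191 for IL-4+anti-CD40, -0.141 between the stimuli, -0.206 and -0.164 for DSF, -0.428 and -0.31 for DSF against NS). It moved all-gene calls from 4283 higher and 4818 lower to 2903 and 6387 for LPS, from 4389 and 4633 to 3454 and 5574 for IL-4+anti-CD40, from 3145 and 2439 to 2428 and 4712 between the stimuli, from 4966 and 5096 to 3473 and 6680 for DSF with LPS, and from 4301 and 4514 to 3262 and 5832 for DSF with IL-4+anti-CD40. Gas5 and DSF with IL-4+anti-CD40 (0.00) was called lower with total counts (-0.151, adjusted p = 0.0354) and gave 0.005 with DESeq2 and with its size factors, 0.029 with at least 10 counts, 0.059 with all 20 libraries, 0.016 in both limma fits, 0.029 with IL-4+anti-CD40 libraries 3 and 4, and -0.047 to 0.042 without 1 library.

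The number of host genes called was 3 for LPS, 4 for IL-4+anti-CD40, 0 between the stimuli, 0 and 0 for DSF, 4 and 4 for DSF against NS and 0 for the interaction under a minimum log2 fold change of 1. All-gene calls were then 1728 higher and 2214 lower of 14477 for LPS, and 1734 and 2540 of 14433 for IL-4+anti-CD40. Between the stimuli they were 1161 and 478 of 14078. For DSF they were 1619 and 969 of 14154 with LPS, and 1369 and 705 of 14275 with IL-4+anti-CD40. For DSF against NS they were 2649 and 2963 of 14663, and 2185 and 2700 of 14678. The interaction gave 185 and 167 of 15130. With total counts it was 7 between the stimuli, 5 for IL-4+anti-CD40 and DSF against NS, and 4 for DSF against ibrutinib with LPS in experiment 2. The interaction gave 0 calls with total counts, size factors, any count, all 20 libraries and both limma fits, 2 with at least 10 counts, and 0 to 3 without 1 library. For the other comparisons, leaving out 1 library gave 7 to 8 calls for LPS, 8 for IL-4+anti-CD40, 3 to 4 between the stimuli, 6 to 7 and 7 for DSF, and 8 and 8 to 9 for DSF against NS. The causes were not tested.

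Libraries with the same replicate number correlated by -0.059 to 0.217, so the numbers were not taken as pairs. The highest values, 0.217 and 0.2, were those of replicates 1 and 4 for DSF with IL-4+anti-CD40, where the same number matched best. A replicate block gave 7, 8, 4, 7, 7, 8, 8 and 1 calls for the 8 comparisons, losing only Snhg5 with IL-4+anti-CD40 and DSF against NS (0.203, adjusted p = 0.0963). All-gene calls with the block were 4042 higher and 4367 lower for LPS, and 4172 and 4367 for IL-4+anti-CD40. They were 2973 and 2164 between the stimuli, 4949 and 5098 for DSF with LPS, and 4155 and 4310 for DSF with IL-4+anti-CD40. For DSF against NS they were 4900 and 5173, and 4749 and 4876. The interaction gave 1134 and 1025. Snhg3 lay under the depth at which a difference could be shown.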
